A study of Mus musculus with 22 samples.

Results

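A set of 10 genes of glycolysis and lactate metabolism was followed across testis, brain and muscle. They were Ldha, Ldhb and Ldhc, Pgk1 and Pgk2, Gapdhs, Eno1, Eno2 and Eno3, and Pkm, and every probe whose annotated symbol was among these 10 was taken. Of the 10 genes, 8 had a probe. No probe of the annotation used here carries the symbol Ldhb or Eno1, and both genes were not analysed here. Ldhc had 3 probes and the other genes 1 each, which made 10 probes of 25697 on the array and 8 of 16593 named genes.

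The arrays came from C57BL/6J mice, mutant in Sgms1, the sphingomyelin synthase of the Golgi, or wild type. Testis came from 4 mutant and 4 wild-type mice aged 27 weeks, and brain and muscle came from 4 mutant and 3 wild-type mice aged 17 weeks, with both tissues taken from the same 7 mice. The 22 arrays thus stand for 15 mice. The kind of mutation, the brain region and the muscle are not given in the sources used here. Because the testis donors were other and older mice, a difference of testis from brain or muscle cannot be told apart from age and donor.

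Several steps of glycolysis are carried out by isozymes, enzymes that catalyse the same reaction but are encoded by different genes, and tissues differ in which gene they use. Lactate dehydrogenase interconverts pyruvate and lactate through the muscle-type Ldha, the heart-type Ldhb and the sperm form Ldhc. The sperm flagellum carries its own glyceraldehyde-3-phosphate dehydrogenase, Gapdhs, and its own phosphoglycerate kinase, Pgk2, an autosomal retrocopy of the X-linked Pgk1. Enolase is known as Eno1 in most cells, Eno2 in neurons and Eno3 in muscle fibres, and Pkm encodes the pyruvate kinase of most tissues outside liver and red cells.

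The bases before the transcription start are shown for the 3 sperm isozymes, which were all bright in testis, and for Ldha and Pgk1, the broadly used members of the same families. All 10 members were found in the RefSeq promoter table of GRCm38.p6, and the window most upstream was taken where a gene had several. Capitals mark TGACG (the core of the cAMP response element TGACGTCA, with which it overlaps), GGGCGG (the GC box) and CCAAT, each searched on both strands.
Ldhc, chr7:46861013-46861262, plus strand: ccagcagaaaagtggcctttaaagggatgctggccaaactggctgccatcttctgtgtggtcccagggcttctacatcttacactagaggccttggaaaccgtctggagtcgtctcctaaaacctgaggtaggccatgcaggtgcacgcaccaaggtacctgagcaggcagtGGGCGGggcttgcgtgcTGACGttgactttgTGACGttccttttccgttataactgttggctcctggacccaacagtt
Pgk2, chr17:40208610-40208859, minus strand: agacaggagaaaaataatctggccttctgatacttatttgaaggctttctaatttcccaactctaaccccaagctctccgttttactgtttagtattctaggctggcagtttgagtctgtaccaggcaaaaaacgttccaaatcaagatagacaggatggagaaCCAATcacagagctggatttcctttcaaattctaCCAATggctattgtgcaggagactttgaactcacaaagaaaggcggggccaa
Gapdhs, chr7:30743682-30743931, minus strand: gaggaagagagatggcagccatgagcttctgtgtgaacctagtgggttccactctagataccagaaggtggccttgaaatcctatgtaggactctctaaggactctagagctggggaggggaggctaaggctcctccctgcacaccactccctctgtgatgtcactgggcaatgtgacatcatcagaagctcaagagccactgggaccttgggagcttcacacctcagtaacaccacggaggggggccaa
Ldha, chr7:46845554-46845803, plus strand: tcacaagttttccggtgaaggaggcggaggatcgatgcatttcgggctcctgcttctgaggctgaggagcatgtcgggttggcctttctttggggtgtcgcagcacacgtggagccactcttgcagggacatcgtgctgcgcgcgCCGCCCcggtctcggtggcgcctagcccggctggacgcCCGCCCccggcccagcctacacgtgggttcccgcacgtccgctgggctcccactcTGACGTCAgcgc
Pgk1, chrX:106186850-106187099, plus strand: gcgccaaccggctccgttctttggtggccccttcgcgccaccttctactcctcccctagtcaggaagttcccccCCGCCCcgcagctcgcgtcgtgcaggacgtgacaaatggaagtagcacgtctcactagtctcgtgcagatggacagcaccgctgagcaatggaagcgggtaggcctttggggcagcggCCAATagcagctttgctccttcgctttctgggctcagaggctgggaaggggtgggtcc

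In these windows of 250 bases TGACG occurred 2 times before Ldhc and 2 times before Ldha, where the 2 matches form the full element TGACGTCA, and 0 times before Pgk2, Gapdhs and Pgk1. TGACG was in 17.8% of 32851 such windows and TGACGTCA in 1.55%. GGGCGG was found 1 time before Ldhc, 2 times before Ldha and 1 time before Pgk1, and it was in 32.7% of all windows. CCAAT occurred 2 times before Pgk2 and 1 time before Pgk1, and it was in 33.8% of all windows. The Ldhc window held 8 CpG pairs, against 25 before Ldha, and the Pgk2 window 3, against 17 before Pgk1, while the Gapdhs window held 1. Ldhc lies directly next to Ldha on chromosome 7, between Ldha and Tsg101. A match is a description of letters in these windows, and no binding was measured.

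Values are given as raw intensity, the linear brightness of a probe, and as log2 of background-corrected and quantile-normalized intensity. A probe was called detected on an array at a detection p under 0.05. Median intensity per array was 93.7 to 107 in testis, 112 to 143 in brain and 133 to 143 in muscle, and 41.1% to 47.1%, 57.1% to 59.5% and 41.5% to 44.6% of probes were detected. The testis library labelled wild type 2 was the dimmest. Of 7 measured germ cell markers, 6 were detected on every testis array, with a summed intensity of 10447 to 18917, and at most 1 was detected on any brain or muscle array. The neuron list reached a summed intensity of 12458 to 20793 in brain, where 3 to 4 of its 6 markers were detected, and the fast fibre list reached 70483 to 87142 in muscle. In brain the fast fibre list reached 6620 to 9761, with 3 to 4 of 5 markers detected. Sycp3, a meiotic marker, was not detected on any testis array, while the late germ cell markers Prm1 (3831 to 7093) and Odf1 (2015 to 5443) were bright there. In these whole tissues, fewer cells of a type and less RNA per cell cannot be told apart.

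The mutated gene was checked before the members, and it did not pass in limma in any tissue (testis -0.62, SE 0.27, adjusted p = 0.834, brain -0.78, SE 0.45, adjusted p = 0.9995, muscle -0.70, SE 0.13, adjusted p = 0.0871). Sgms1 in muscle was at 7.21, 7.5, 7.30 and 7.13 (log2) in mutants, against 7.77, 8.09 and 8.12 in wild types. In testis it was at 5.06, 5.89, 4.97 and 5.89 in mutants, against 6.07, 5.43, 6.26 and 6.55 in wild types. In brain it was at 6.59, 8.14, 6.31 and 6.57 in the 4 mutants by label, against 8.33, 8.07 and 6.64 in the 3 wild types by label. Replicate 2 of the brain libraries labelled mutant and replicate 3 of those labelled wild type therefore went against their labels. In testis the library labelled wild type 2 (5.43) lay below those labelled mutant 2 and 4. Without both brain libraries, the counts of member probes that passed stayed at 10 for testis against brain and 6 for brain against muscle. For most genes named below, the genotype difference in brain is also given without that pair, and that in testis without the library labelled wild type 2.

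Ldhc, the sperm lactate dehydrogenase, was bright on all 8 testis arrays and at or near background elsewhere. Its brightest probe ranged from 4605 to 10790 in raw intensity in testis (median 8941), from 105 to 137 in brain (median 106) and from 116 to 128 in muscle (median 123). It was detected on 8 of 8 testis, 3 of 7 brain and 0 of 7 muscle arrays, and no brain or muscle array came near any testis array. The level in testis was at least 536-fold that in muscle, and against brain, where it lay near the floor, the log2 difference was 9.60 (SE 0.06, limma adjusted p = 3.80e-29). The other probes of Ldhc behaved likewise. ILMN_1248952 gave at least 397-fold over brain and at least 281-fold over muscle, and ILMN_2930177 at least 595-fold over brain, with 1 of 7 muscle arrays detected. A bound is the mean of the bright tissue over the lowest detected signal of each dim array, in quantile-normalized values. Each bound holds in that scaling only. For the brightest Ldhc probe the bound over muscle was 9.07 on the log2 scale. Without normalization between arrays its fitted difference was 8.42 from brain and 8.80 from muscle. The lowest values over all alternatives were 7.08 and 7.21.

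Pgk2, the phosphoglycerate kinase of late germ cells, ranged from 1150 to 2489 in testis (median 1886), from 95 to 111 in brain (median 101) and from 124 to 139 in muscle (median 131). It was detected on all 8 testis arrays and on 0 of the other 14. In quantile-normalized values the level in testis was at least 191-fold that in brain and at least 135-fold that in muscle (log2 7.58 and 7.08). Without normalization between arrays the fitted differences were smaller, at 6.52 and 6.43. The lowest values over all alternatives were 5.14 and 5.09. The X-linked Pgk1 showed another pattern on a dim probe. It was detected on 7 of 7 brain arrays, at 126 to 181, and on 0 of 8 testis arrays (88.4 to 102) and 0 of 7 muscle arrays (127 to 140). Its level in brain was at least 1.14-fold that in testis and at least 1.05-fold that in muscle in quantile-normalized values. With median scaling the direction against testis turned (testis against brain 0.81, and -0.75 in quantile-normalized values) and the difference from muscle did not pass (0.12). Between testis and muscle no fold is given because it was not well above background in either. The call between testis and muscle (-0.19, limma adjusted p = 0.0435) was lost in 8 of the fits that left out 1 array.

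Gapdhs, the glyceraldehyde-3-phosphate dehydrogenase of the sperm tail, ranged from 662 to 2018 in testis (median 1579), from 94.6 to 112 in brain (median 98.4) and from 127 to 135 in muscle (median 132). It too was detected on 8 of 8 testis arrays and on 0 of 14 others. In quantile-normalized values its level in testis was at least 140-fold that in brain and at least 99.1-fold that in muscle (log2 7.13 and 6.63). Without normalization between arrays the fitted differences were smaller, at 6.16 and 6.04. The lowest values over all alternatives were 4.72 and 4.67. Gapdh, the dehydrogenase of other cells and not a member, ran the opposite way on both of its probes. Its brightest probe was at 347 to 675 in testis, 10858 to 16672 in brain and 18336 to 22922 in muscle. The difference was -3.28 (SE 0.07) for testis against brain and -3.91 (SE 0.07) for testis against muscle on the log2 scale.

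**Figure D1:**
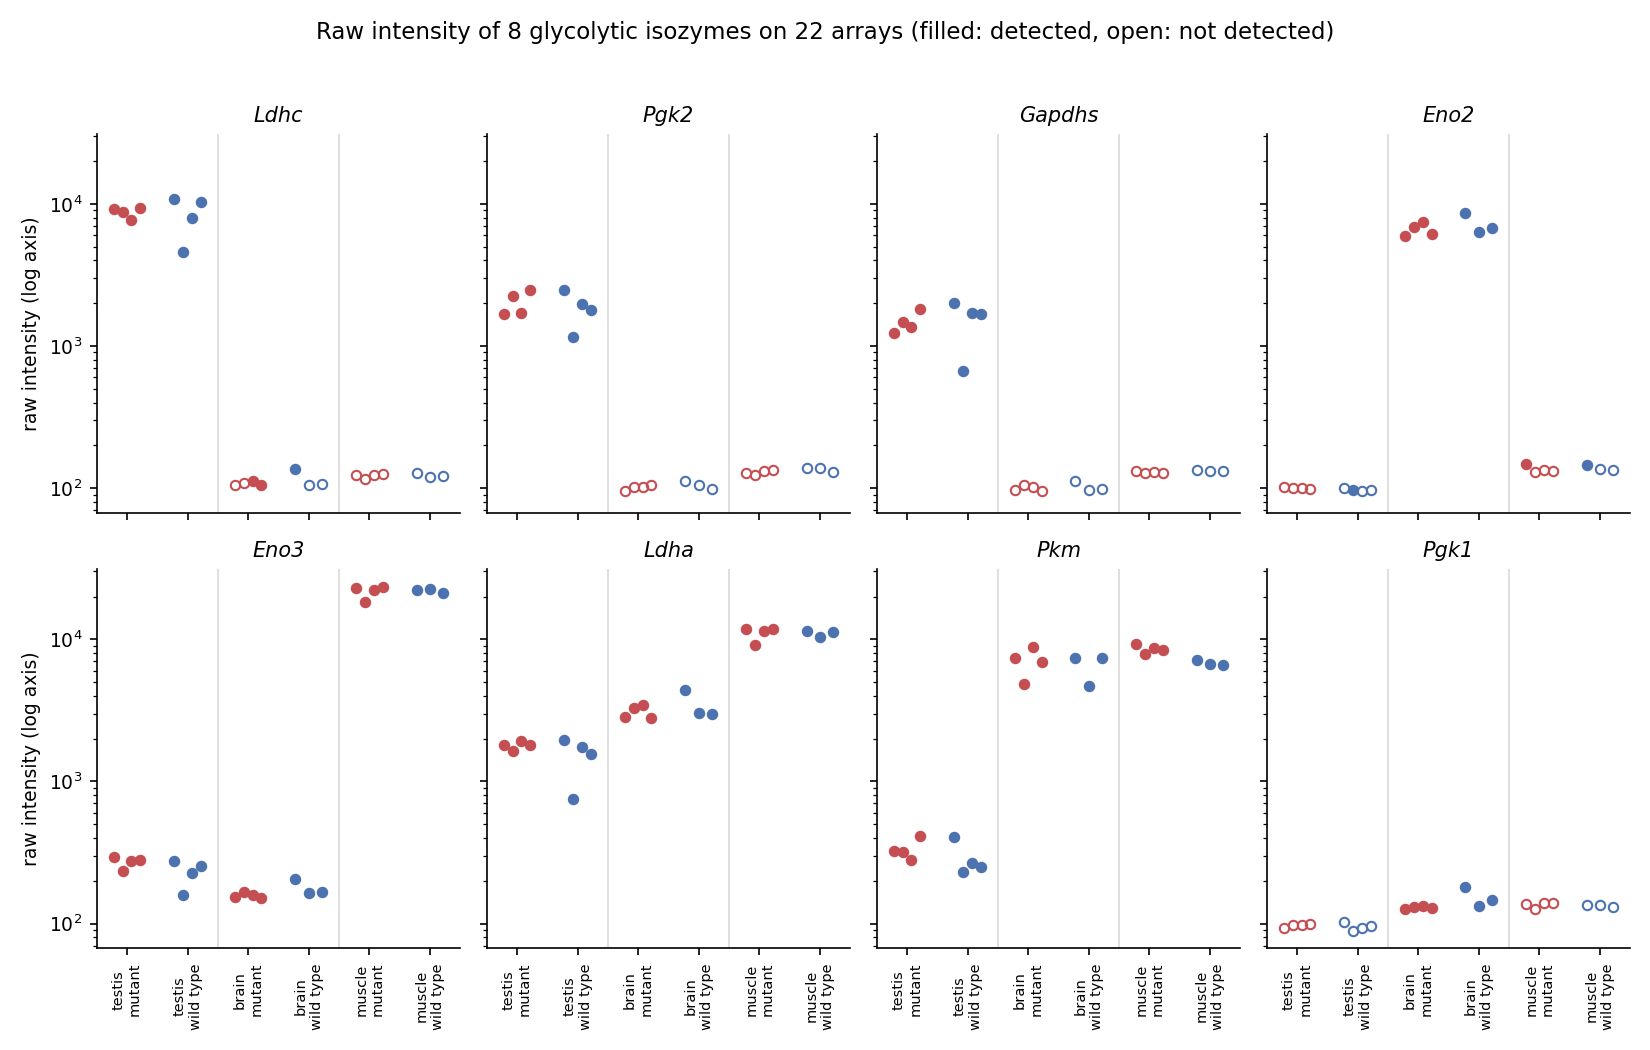
Raw intensity (log axis) of the brightest probe of 8 isozymes on each of 22 arrays, by tissue and genotype. Each point is 1 array, red for mutant and blue for wild type, filled where detected (p under 0.05) and open where not. Ldhc, Pgk2 and Gapdhs are bright in testis, Eno2 in brain and Eno3 in muscle. The Pgk1 probe is dim in every tissue and passes detection in brain alone.

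Among the enolases, Eno2 was bright in brain and Eno3 in muscle. Eno2, the neuronal enolase, ranged from 94.8 to 102 in testis (median 99.3), from 5911 to 8626 in brain (median 6813) and from 130 to 149 in muscle (median 135). It was detected on 1 of 8 testis, 7 of 7 brain and 2 of 7 muscle arrays. The fitted differences were -7.52 for testis against brain and 7.43 for brain against muscle (log2). Most testis and muscle arrays were at the floor, which sets the size of both differences. The probe was kept by the detection filter through brain alone, so no support is drawn from its tests against brain. Testis and muscle did not pass (-0.09, SE 0.18, interval -0.46 to 0.28, limma adjusted p = 0.660), and with median scaling testis was above muscle by 0.92 (adjusted p = 7.07e-07), so no order of the 2 is given.

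Eno3, the muscle enolase, was detected on all 22 arrays. Raw intensity ranged from 158 to 294 in testis (median 265), from 151 to 205 in brain (median 163) and from 18340 to 23449 in muscle (median 22323). Muscle stood clear of both other tissues, whereas the raw values of testis and brain overlapped. On the log2 scale testis against muscle differed by -5.33 (SE 0.07, adjusted p = 9.55e-25) and brain against muscle by -8.42 (SE 0.07, adjusted p = 4.91e-27). These were -7.05 and -8.11 without normalization between arrays. Testis was above brain by 3.09 (SE 0.07, adjusted p = 1.30e-20), a difference of 1.05 without normalization between arrays.

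Ldha, the muscle-type lactate dehydrogenase, ranged from 751 to 1953 in testis (median 1769), from 2784 to 4425 in brain (median 3025) and from 9141 to 11854 in muscle (median 11429). Muscle was the highest of the 3 tissues on every array. In quantile-normalized values brain against muscle differed by -2.19 (SE 0.07), or 4.56-fold lower, and testis against muscle by -1.30 (SE 0.07), or 2.46-fold lower. These differences were -1.79 and -2.85 without normalization between arrays, so both folds hold in quantile-normalized values only. The order of testis and brain depended on the scaling. Testis was above brain by 0.89 (SE 0.07, adjusted p = 3.47e-11) after quantile normalization, and below it in raw intensity, with a difference of -1.07 without normalization between arrays. The median of all probes differed by -0.14 between testis and brain in the quantile-normalized values and by -1.24 without normalization between arrays, so relative to that median Ldha was higher by 1.03 and by 0.18.

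Pkm, which encodes pyruvate kinase, was low in testis. It ranged from 229 to 414 in testis (median 298), from 4724 to 8760 in brain (median 7342) and from 6579 to 9307 in muscle (median 7832). Testis stood below every brain and muscle array. In quantile-normalized values testis against brain differed by -2.98 (SE 0.16, adjusted p = 7.26e-14), or 7.91-fold lower. Testis against muscle differed by -3.58 (SE 0.16, adjusted p = 2.83e-15), or 11.9-fold lower. Over all alternatives these differences ran from -4.87 to -2.60 and from -5.08 to -3.11, with the lowest values without normalization between arrays. Both folds thus hold in quantile-normalized values only. Brain and muscle overlapped in raw intensity. Brain was lower by 1.51-fold (-0.59, SE 0.16, adjusted p = 0.00280), which did not pass in wild-type arrays alone (-0.60, adjusted p = 0.0563) or without normalization between arrays (-0.21, adjusted p = 0.262).

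All 10 member probes passed at a 5% false discovery rate in limma between testis and brain (7 higher in testis, 3 lower), 9 of 10 between testis and muscle (5 higher, 4 lower) and 6 of 10 between brain and muscle (3 higher in brain, 3 lower). These counts hold Pgk1 between testis and muscle and the brightest Ldhc probe between brain and muscle, neither of which has a fold above its bound. Ldhc enters with 3 probes. ILMN_1248952 and ILMN_2930177 of Ldhc, Pgk2 and Gapdhs were kept by the detection filter through testis alone, and Eno2 and Pgk1 through brain alone. No support is drawn from their calls between that tissue and another. Of all 17703 probes tested, 81.4% passed between testis and brain (35.6% higher, 45.8% lower), 74.9% between testis and muscle (33.7% higher, 41.3% lower) and 69.5% between brain and muscle (33.6% higher, 35.8% lower), so that a passing probe was the usual case. Of all calls, 43.7%, 45% and 48.4% were higher in the tissue named first. With median scaling these shares were 70.8%, 75.7% and 35.6%, and without normalization between arrays 16.1%, 29.2% and 84.0%.

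**Figure D2:**
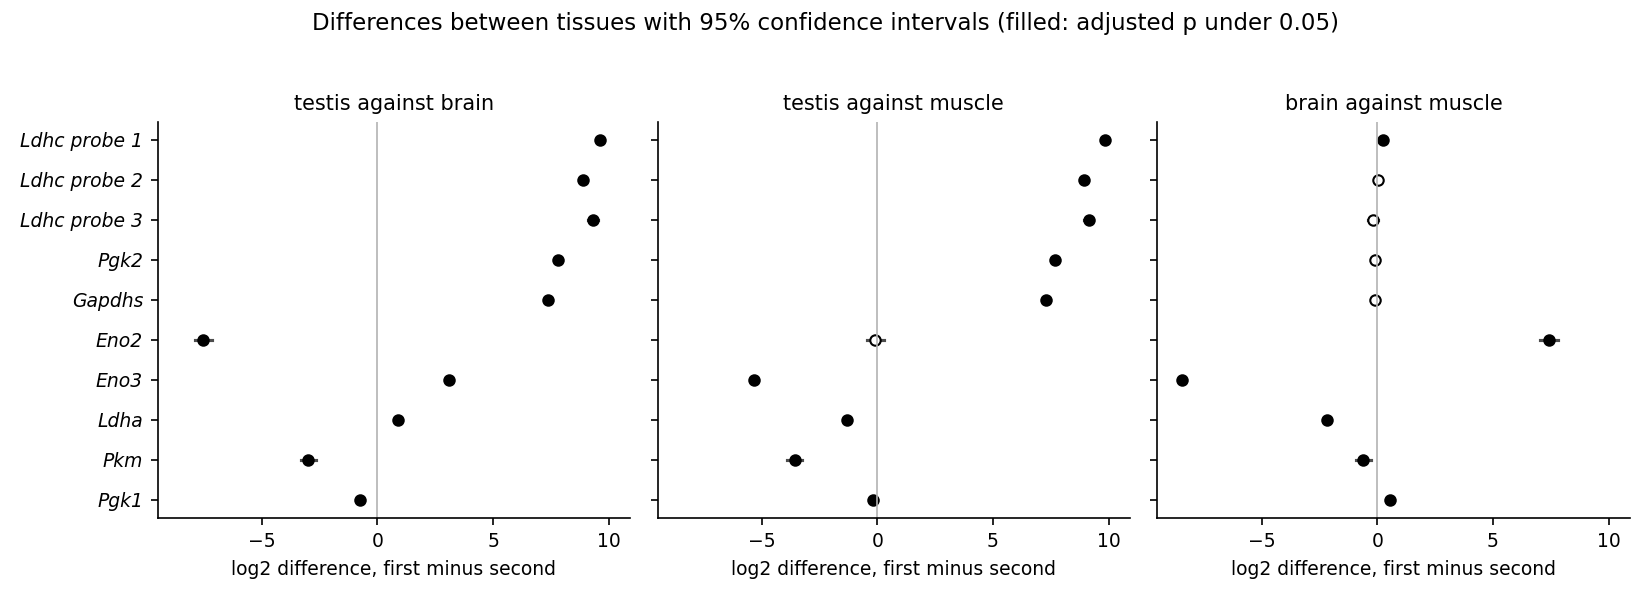
Log2 difference between tissues for the 10 member probes with 95% confidence intervals, in 3 panels with a common axis; filled points passed a 5% false discovery rate in limma. The sperm isozymes lie between 7.30 and 9.86 in both testis panels, Eno2 at -7.52 for testis against brain and 7.43 for brain against muscle, and Eno3 at -8.42 for brain against muscle. Where a probe was undetected or near its floor in a tissue (the sperm isozymes outside testis, Eno2 outside brain, Pgk1 outside brain), the point is a fitted value set by the floor and not a measured fold. Small intervals are hidden by the points.

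Within an array, the difference between 2 isozyme probes also contains the unequal brightness of the probes, so only its change between groups was read, as a description with no test. Ldhc minus Ldha averaged 2.27 (SD 0.17, n = 8) in testis, -6.45 (SD 0.12, n = 7) in brain and -8.89 (SD 0.06, n = 7) in muscle. Gapdhs minus Gapdh averaged 1.65 (SD 0.35) in testis, -9.01 (SD 0.07) in brain and -9.56 (SD 0.04) in muscle. Both balances thus lay higher in testis by 8.72 or more, and no array of testis overlapped another tissue. Eno2 minus Eno3, used because Eno1 had no probe, averaged -4.02 (SD 0.41) in testis, 6.6 (SD 0.09) in brain and -9.26 (SD 0.38) in muscle, and the 3 tissues did not overlap. Pgk2 minus Pgk1 averaged 7.75 (SD 0.18) in testis, where Pgk1 was undetected, and -0.78 (SD 0.15) in brain, where Pgk2 was undetected, and it has no reading in muscle, where both were. Where a probe of a pair was at background, as in these and for Ldhc, Gapdhs or Eno2 outside their bright tissue, the values are set by the floor. Mutant and wild-type arrays overlapped in each of these balances in each tissue, apart from Pgk2 minus Pgk1 in muscle.

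**Figure D3:**
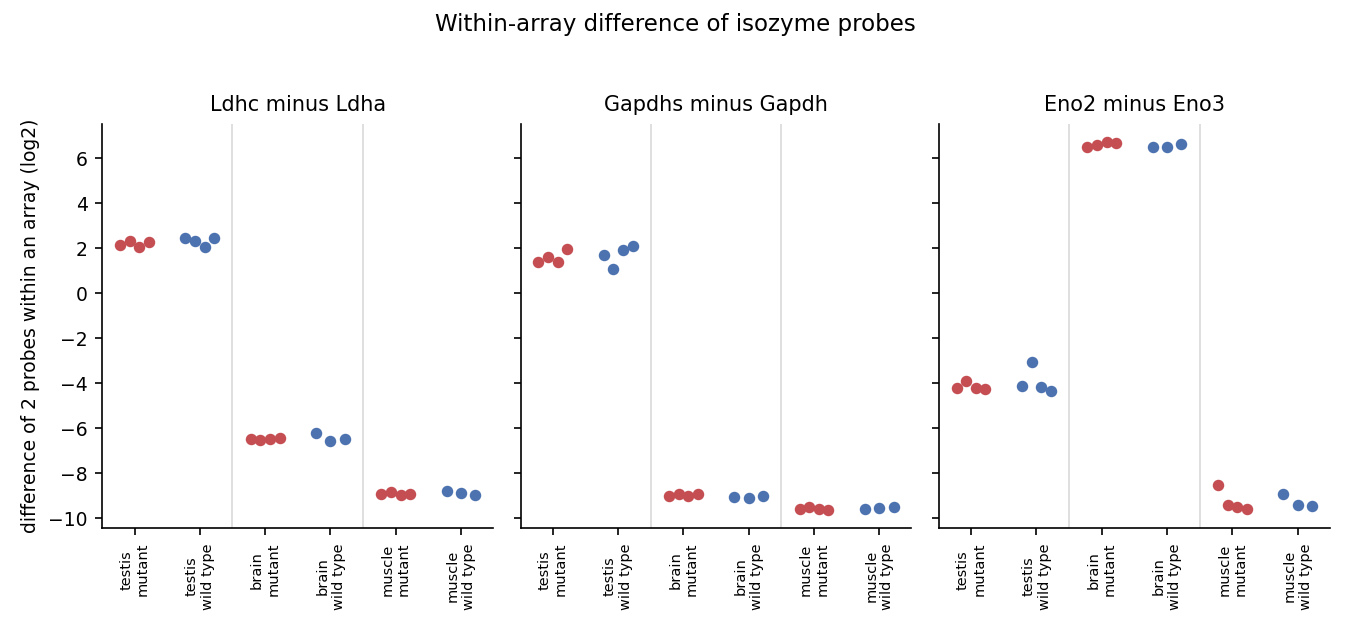
Within-array log2 difference of 2 isozyme probes on 22 arrays by tissue and genotype, red for mutant and blue for wild type. Ldhc minus Ldha and Gapdhs minus Gapdh are positive in testis alone, Eno2 minus Eno3 is positive in brain alone, and in these 3 balances mutant and wild-type arrays overlap within each tissue.

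Genes whose normalized levels ran most like the tissue-specific members over the 22 arrays were found by Pearson's r, which here mostly reflects the 3 tissues. Ldhc ran with Gsg1 (0.9997), Tcp10a and Kif2b. Pgk2 ran with Thegl (0.9995), 4930449I24Rik and Ccin, which encodes calicin of the sperm head. Gapdhs ran with Capza3 (0.9997), an actin-capping subunit of sperm, Lkaaear1 and Tepp. Such likeness was common, with 596 of 11950 genes above 0.99 for Ldhc, 597 for Pgk2 and 618 for Gapdhs. For Eno2 there were 211, led by Cmtm5 (0.9968), Sv2a, a synaptic vesicle protein, and Otx1, and for Eno3 17, led by Gucd1 (0.9981), Rbms2 and the kinase gene Mknk2.

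Of 38 other genes of glucose uptake, glycolysis and pyruvate use, 31 had a probe and 27 were tested between tissues. At a 5% false discovery rate, testis passed as higher than brain for 8 and as lower for 13. It passed as higher than muscle for 6 and as lower for 18, and brain as higher than muscle for 10 and as lower for 16. Over all probes the shares passing as higher and lower were 35.6% and 45.8%, 33.7% and 41.3%, and 33.6% and 35.8%. Their median difference was -0.24, -1.16 and -0.90, beside -0.14, -0.07 and -0.03 over all probes. Aldoc, the brain aldolase, differed by -6.98 (SE 0.19) for testis against brain and was at least 211-fold higher in brain than in muscle. Pgam2, the muscle phosphoglycerate mutase, differed by 5.25 (SE 0.09) for testis against brain and by -6.90 (SE 0.10) for brain against muscle. Eno4, an enolase-like gene of sperm, was higher in testis than in brain by 4.76 (SE 0.07), and Pfkp, the platelet-type phosphofructokinase, was lower by -4.60 (SE 0.14). The Eno4 probe used averaged 4.68 (log2) in brain, near the floor. Other probes differed less, with means of 7.51 in testis and 4.88 in brain for Eno4 (ILMN_3007065). For Pfkp (ILMN_2807702) they were 4.38 and 4.80. Against muscle, testis was lower for the pyruvate dehydrogenase kinase Pdk4 (-7.59, SE 0.13), the aldolase Aldoa (-5.83, SE 0.13), the insulin-responsive glucose transporter Slc2a4 (-5.37, SE 0.08) and the X-linked pyruvate dehydrogenase subunit Pdha1 (-5.22, SE 0.10). Brain was below muscle for Pdk4 (-6.55, SE 0.13) and hexokinase 2, Hk2 (-5.84, SE 0.10). Pdk4, Slc2a4 and Pfkp were detected on 2, 1 and 3 of 8 testis arrays, so their values there lie near the floor.

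Between genotypes no member passed in limma in any tissue. In testis 0 of 8 member probes tested passed and 0 had an unadjusted p under 0.05, in brain 0 of 6 and 0, and in muscle 0 of 3 and 1. Over all probes 0% passed in testis (0 of 12487), 0% in brain (0 of 15264) and 0.105% in muscle (12 of 11391, with 0.0527% higher and 0.0527% lower). An unadjusted p under 0.05 was found for 5.53%, 3.85% and 9.18% of all probes. Groups did not overlap for 3.42%, 4.44% and 8.88% of all probes, and for 0, 0 and 1 of the member probes.

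No probe of the sperm isozymes passed between mutant and wild-type testis, and the intervals bound the differences in quantile-normalized values only. Ldhc (log2, brightest probe) was at 13.19, 13.09, 13.04 and 13.04 in mutants, against 13.09, 12.82, 12.88 and 13.09 in wild types. The difference was 0.12 (SE 0.12, interval -0.14 to 0.38, adjusted p = 0.887), and the other probes gave -0.11 (SE 0.14) and -0.05 (SE 0.14), so the 3 probes did not share a sign. Without the library labelled wild type 2 they were 0.07, -0.06 and 0.03. Over all alternatives the difference of the brightest probe ran from -0.063 to 0.18. Pgk2 was at 10.70, 11.08, 10.65 and 11.10 in mutants, against 10.83, 11.04, 10.89 and 10.70 in wild types, a difference of 0.02 (interval -0.29 to 0.33). Gapdhs was at 10.23, 10.43, 10.29 and 10.63 in mutants, against 10.51, 10.19, 10.61 and 10.60 in wild types, a difference of -0.08 (interval -0.39 to 0.22). Each group's range overlapped the other's. Without the library labelled wild type 2, Pgk2 differed by 0.08 (SE 0.15) and Gapdhs by -0.18 (SE 0.13), and neither passed. The germ cell list had a summed intensity of 10591 to 16582 in mutants and 10447 to 18917 in wild types. The epididymis list had 1414 to 1691 in mutants and 207 to 2588 in wild types, with 207 in wild type 4 and 1026 or more in the others. These sums are of raw intensity. In normalized values 0 of 6 germ cell markers tested were higher in mutants (median -0.23, beside 0.02 over all probes), and 0 passed. Their part in the isozyme values was not tested.

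Ldha in testis was at 10.81, 10.61, 10.80 and 10.59 in mutants, against 10.46, 10.37, 10.65 and 10.47 in wild types. It was higher in mutants by 0.21 (SE 0.12, interval -0.05 to 0.48, adjusted p = 0.834), with wild type 3 above 2 mutants. Eno3 in testis was higher by 0.19 (SE 0.14, adjusted p = 0.862), and Pkm by 0.08 (SE 0.20, adjusted p = 0.959). Without the library labelled wild type 2 these 3 values were 0.18, 0.21 and 0.25 (adjusted p = 0.813, 0.803 and 0.817). In brain the neuronal Eno2 was at 12.63, 12.74, 12.82 and 12.80 in libraries labelled mutant, against 12.59, 12.73 and 12.80 in those labelled wild type, a difference of 0.04 (interval -0.19 to 0.26), and 0.08 without the libraries of doubtful label. Pgk1 in brain was at 5.47, 5.43, 5.59 and 5.72 in libraries labelled mutant, against 5.82, 5.60 and 5.94 in those labelled wild type, a difference of -0.24 (SE 0.12, adjusted p = 0.9995) on a probe near its floor, and -0.12 without those libraries. For Ldha it was 0.06 (SE 0.10) and 0.05 without them, for Eno3 -0.03 (SE 0.10) and -0.01, and for the brightest Ldhc probe -0.02 (SE 0.13) and -0.06. In muscle, Eno3 differed by 0.00 (SE 0.10, interval -0.21 to 0.22) and Ldha by 0.05 (SE 0.10, interval -0.17 to 0.28).

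Pkm was the member with the smallest p between genotypes. In muscle it was at 13.03, 13.10, 13.04 and 13.02 in mutants, against 12.57, 12.76 and 12.71 in wild types. All 4 mutants lay above all 3 wild types. The difference was 0.37 (SE 0.10, interval 0.15 to 0.59), 1.29-fold, with a limma adjusted p = 0.246, so it did not pass over all probes. It passed when limma used a trended, robust prior (adjusted p = 0.0421). The alternatives spanned 0.30 to 0.43 for the difference and 0.0421 to 0.997 for the adjusted p. In the same muscle libraries the summed intensity of 5 adipocyte markers was 981 to 1796 in mutants and 2707 to 4562 in wild types. That of 5 slow fibre markers was 5661, 5837, 971 and 1618 in mutants and 1077 to 2151 in wild types, so only mutants 1 and 2 lay above the wild types. Their part in the Pkm difference was not tested.

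In brain Pkm was at 12.96, 12.23, 13.07 and 12.93 in libraries labelled mutant, against 12.34, 12.30 and 12.91 in those labelled wild type. Replicate 2 of the mutants, which was low, and replicate 3 of the wild types, which was high, are the same 2 libraries whose Sgms1 level went against the label. The difference by label was 0.28 (SE 0.21, interval -0.18 to 0.73, adjusted p = 0.9995). Without both libraries it was 0.67 (SE 0.13, adjusted p = 0.251), which also did not pass. Those libraries were picked by their Sgms1 level after it was seen, and the same mice's muscle libraries did not go against their labels in Sgms1 or in Pkm. In testis the values of Pkm were 7.91, 7.87, 7.52 and 8.23 in mutants, against 7.94, 8.31, 7.52 and 7.44 in wild types, with full overlap.

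**Figure D4:**
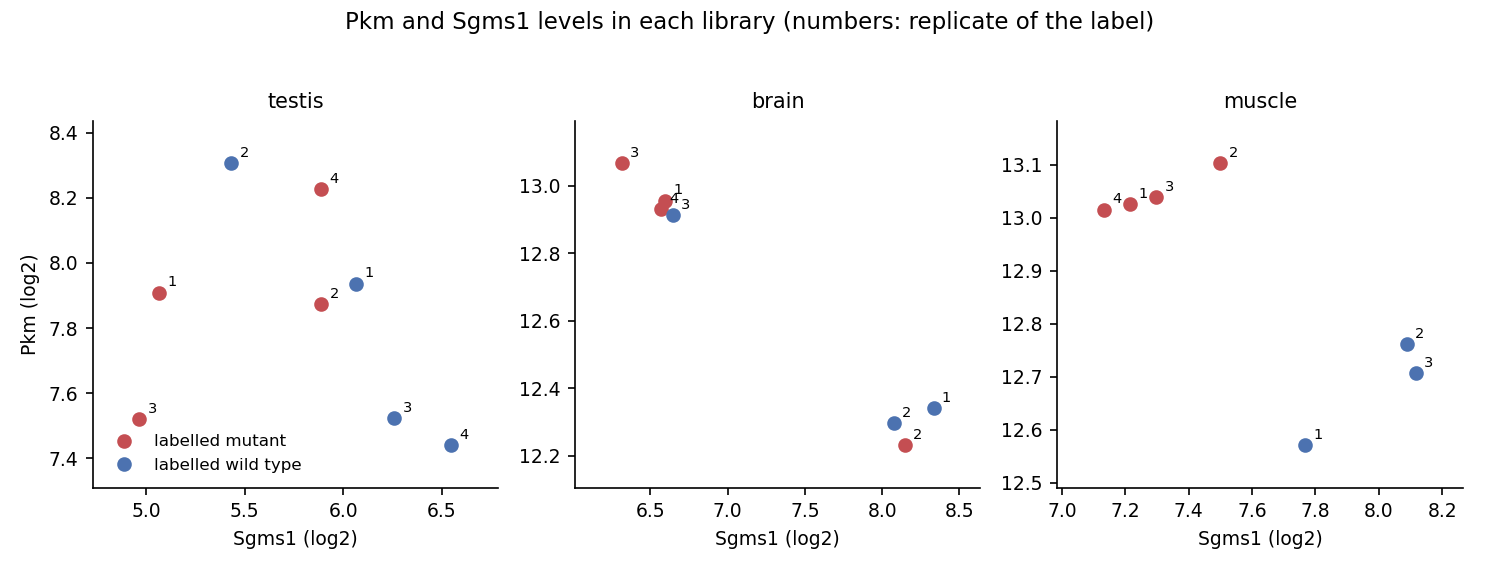
Log2 level of Pkm against that of Sgms1 in each library of testis, brain and muscle, red for libraries labelled mutant and blue for libraries labelled wild type, with the replicate number beside each point and axes that differ between panels. In brain, the library labelled mutant 2 (Pkm 12.23) lies among those labelled wild type and the library labelled wild type 3 (Pkm 12.91) among those labelled mutant.

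Whether the genotype difference itself differed between tissues was tested in the fit over all 22 arrays. Of the 10 member probes 0 passed for brain minus muscle, testis minus brain or testis minus muscle in limma, and 1, 0 and 1 had an unadjusted p under 0.05. These were Pgk1 for brain minus muscle (-0.43, SE 0.17) and ILMN_2930177 of Ldhc for testis minus muscle (-0.48, SE 0.19), probes detected on 0 and 1 of the 7 muscle arrays. Pgk1 was at -0.32 (SE 0.18) without both brain libraries of doubtful label, and the Ldhc probe at -0.43 (SE 0.20) without the testis library labelled wild type 2. Over all 17703 probes 0.0113%, 0% and 0.311% passed. For Pkm the difference of the genotype effect was 0.04 (SE 0.33) for brain minus muscle, -0.27 (SE 0.32) for testis minus brain and -0.22 (SE 0.32) for testis minus muscle, and without the brain libraries of doubtful label it was 0.53 (SE 0.27) for brain minus muscle and -0.76 (SE 0.26) for testis minus brain, neither of which passed. Without the testis library labelled wild type 2 it was -0.10 (SE 0.30) for testis minus brain and -0.05 (SE 0.30) for testis minus muscle.

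**Figure D5:**
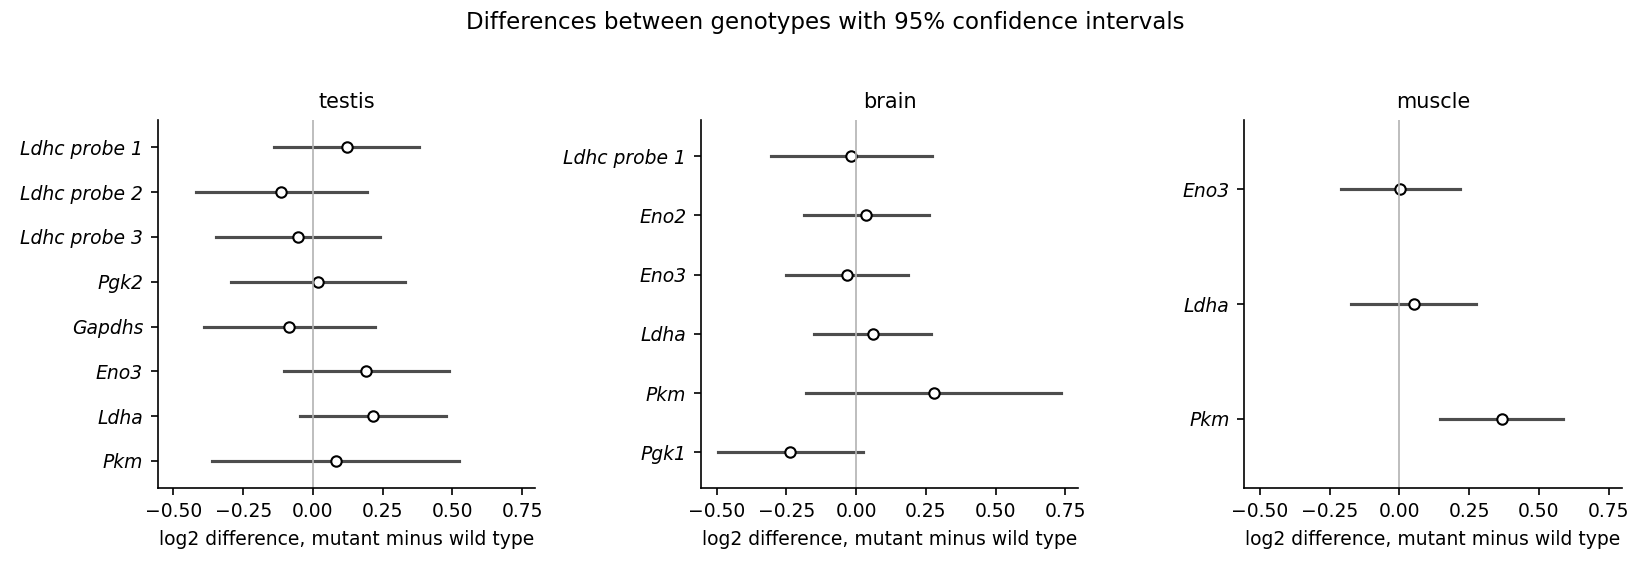
Log2 difference between mutant and wild type in testis, brain and muscle for the member probes tested in that tissue, with 95% confidence intervals. The interval for Pkm in muscle (0.15 to 0.59) lies above 0, the others include 0, and no probe passed a 5% false discovery rate.

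Of the other genes of glucose use, 0 of 21 tested in testis, 0 of 25 in brain and 0 of 22 in muscle passed between genotypes in limma. Their median difference was 0.03, -0.03 and -0.05, beside 0.02, 0.00 and 0.01 over all probes. Those of smallest p did not pass. In muscle these were Pfkl, the liver-type phosphofructokinase, at 6.80, 6.57, 6.67 and 6.53 in mutants, against 7.20, 6.99 and 7.33 in wild types (-0.53, SE 0.12, adjusted p = 0.161), and Pdk4 (-0.45, SE 0.11, adjusted p = 0.181). In testis they were Pfkl (0.33, SE 0.15) and the glucose transporter Slc2a3 (0.34, SE 0.16), both at an adjusted p of 0.834, and without the library labelled wild type 2 they were 0.43 and 0.45 (adjusted p = 0.717 for both). In brain they were the pyruvate dehydrogenase kinase Pdk2 (0.35, SE 0.14) and hexokinase 1, Hk1 (0.28, SE 0.13), at an adjusted p of 0.9995, and without both libraries of doubtful label they were 0.49 (adjusted p = 0.799) and 0.36 (adjusted p = 0.847). The genotype difference of Pfkl was larger in testis than in muscle by 0.80 (SE 0.17, adjusted p = 0.0503), just outside the threshold. It passed without the testis library labelled wild type 2 (0.89, SE 0.16, adjusted p = 0.0196). That library was picked by its Sgms1 level after it was seen. Over all probes 70 of 17665 passed without it, against 55 of 17703 with all arrays. Pgam1 was next for testis minus muscle (0.70, SE 0.30, adjusted p = 0.421, and 0.72 without that library). For brain minus muscle Pfkl (0.63, SE 0.18, adjusted p = 0.406) and Pgam1 (0.64, SE 0.31) led, at 0.67 and 0.66 without both brain libraries of doubtful label. For testis minus brain Slc2a3 (0.38, SE 0.18) and Aldoa (-0.46, SE 0.26) led, at 0.43 and -0.52 without those brain libraries and at 0.49 and -0.44 without the testis library.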

How the data were processed

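Total RNA, amplified to biotin-labelled cRNA, was measured on Illumina bead arrays, per the labels' protocols. For each probe on an array the authors deposited an intensity on a linear scale, with medians that differ between arrays, and a detection p-value. A deposited table of processed intensity of the same arrays, with unstated background and scaling, served only as an alternative. The submitters' processing notes name GenomeStudio 2011.1. Of columns of another series 0 were found, no 2 arrays held identical values, and 0 raw intensities lay below 0.

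From the deposited intensity, log2 values were made here by the neqc function (limma 3.58.1, R 4.3.3), that is, normexp background correction whose negative controls are inferred from the detection p, an offset of 16 and quantile normalization. Tissues were compared on 22 arrays normalized together in 1 fit over 6 groups, with genotypes weighted equally. Genotypes were compared within each tissue. Probes detected (p under 0.05) on at least 3 arrays of a tissue were kept, and lmFit and eBayes with Benjamini-Hochberg adjustment over all probes kept gave two-sided p-values. The fitting step was also run on simulated log2 values with planted shifts, which does not test the background correction or the normalization.

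Probe symbols came from the platform annotation. Of 25697 probes, 23978 had 1 symbol, 0 several and 1719 none, and 23962 matched RefSeq by entrez identifier. Probe sequences were not checked for cross-hybridisation between isozymes. Members were always named, with every probe, and the probe of highest mean over all arrays stood for a gene. Of the other glucose genes, the 4 largest differences past the threshold per tissue comparison and the 2 of smallest p per genotype comparison were named, with Gapdh and Sgms1, and the 3 genes of highest r per tissue-specific member. The members and lists were chosen with earlier results of these data known.

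Deviations from group means of brain and muscle of the same mouse, paired through the mouse identifiers of the labels, correlated at 0.010 to 0.108 over 7 pairs. Same-numbered mutants and wild types correlated at -0.014 to 0.019 in testis, -0.012 to 0.135 in brain and 0.015 to 0.100 in muscle, so the numbers were not taken as pairs. Replicates are separate mice, and the number of arrays limits the precision. Alternatives were quantile normalization without background correction, median scaling, no normalization between arrays (chosen after seeing the data), the authors' processed values, no detection filter, trend and robust options, 1 fit over all arrays for genotype, blocks, single genotypes, leaving out each array, and leaving out both brain libraries of doubtful label.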

Additional observations from a re-analysis of the deposited data

Results flagged for a closer look

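Pkm in the brain library labelled mutant 2 was at 12.23 (log2), while the other 3 brain libraries labelled mutant lay between 12.93 and 13.07. Its gap to the nearest of them was 0.836 of the group's range, above Dixon's 95% critical value for 4 samples. It was 1 of 24 groups of 4 tested in this way, over the probes detected on all 4 arrays of the group, and chance flags about 1 in 20. The same library had the highest Sgms1 level of those labelled mutant, at 8.14 against 6.31 to 6.59.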

How the results depend on the processing

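The counts of member probes past the threshold were 10, 9 and 6 between tissues and 0 in each genotype comparison and each difference of genotype effects, and they stayed within 1.5 times under every alternative run, apart from mutant against wild type in muscle, where 1 member (Pkm) passed with the trend and robust options. The mouse as a random replicate block gave 6 member probes for brain against muscle, and the replicate number as a fixed replicate block gave 0 in testis, brain and muscle, and neither changed a member's call. The counts over all probes moved more. Muscle genotype calls were 12, with 4 to 149 over the alternatives (149 with all arrays in 1 fit, and 35 with the replicate block, of which 22.9% were higher, against 6 of 12). With median scaling 32.1% of muscle calls were higher and with 1 fit 30.2%. Testis calls were 0 and at most 86 with 1 fit, brain calls 0 and at most 6, and those for testis minus muscle 55, with 12 to 84 when leaving out single arrays is included (63.6% higher, and 91.7% with median scaling). Those for brain minus muscle were 2, with 0 to 22 (22 without muscle wild type 1), and those for testis minus brain 0, with 0 to 10 (10 without testis mutant 4).

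Median scaling moved the median of all probes to 1.02 between testis and brain, 0.91 between testis and muscle and -0.44 between brain and muscle, against -0.14, -0.07 and -0.03. With no normalization between arrays it was -1.24, -0.25 and 0.66. Directions turned for Ldha in testis against brain with no normalization between arrays (-1.07), and with median scaling for Pgk1 in testis against brain (0.81) and against muscle (0.94), Eno2 in testis against muscle (0.92) and Ldhc in brain against muscle (-0.72), where a probe was at its floor in at least 1 tissue. The 4 differences turned by median scaling passed in the turned direction (adjusted p = 3.90e-07, 3.92e-08, 7.07e-07 and 3.19e-07). Differences near 0 turned as well, and none of these passed. With median scaling these were the brain minus muscle genotype difference of Ldha (-0.00836), Eno2 (-0.000337) and Pkm (-0.092), that of Ldhc for testis minus brain (-0.18) and testis minus muscle (-0.22), that of Pgk2 for testis minus muscle (-0.040), and mutant against wild type for Ldhc (-0.063) and Pgk2 (-0.023) in testis and Ldhc in brain (0.091). With the authors' values they were Eno3 (0.0025) and Pkm (-0.031) for brain minus muscle, Eno2 for testis minus brain (0.091) and testis minus muscle (0.25), and Eno3 in muscle (-0.026). Without background correction they were Pgk2 for testis minus brain (0.010) and Eno2 for testis minus muscle (0.0055). Pgk2 for testis minus brain was 0.0055 without both doubtful brain libraries, and Eno3 in muscle was -0.000235 with 1 fit and -0.0130 with the replicate block. The cause was not tested.

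With single arrays left out, differences ran on both sides of 0 for Eno2 (-0.25 to 0.038) in testis against muscle, and for Ldha (-0.038 to 0.057), Ldhc (-0.061 to 0.041), Eno2 (-0.11 to 0.31), Eno3 (-0.077 to 0.0042), Pkm (-0.086 to 0.29) for brain minus muscle, and for Pgk2 (-0.071 to 0.073), Eno2 (-0.20 to 0.23) for testis minus brain, and for Gapdhs (-0.15 to 0.0027), Eno2 (-0.20 to 0.28) for testis minus muscle, and for Pgk2 (-0.055 to 0.099), Pkm (-0.04 to 0.25) in mutant against wild type in testis, and for Ldhc (-0.088 to 0.0298), Eno2 (-0.023 to 0.083), Eno3 (-0.10 to 0.0075) in mutant against wild type in brain, and for Eno3 (-0.014 to 0.033) in mutant against wild type in muscle. Pgk1, testis against muscle, missed the threshold in 8 of the fits that leave out 1 array, without both doubtful brain libraries and in either genotype alone, and the probe was undetected in both tissues. Probes not well above background limit every statement on Pgk1, on Eno2 in testis and muscle, and on sperm isozymes outside testis.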
